A study of Rattus norvegicus with 13 samples.

Results

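The genes described here are those of the amino acid response driven by the transcription factor ATF4, together with cytosolic tRNA synthetases. They comprise 37 genes, chosen by symbol, and a gene counted as measured when at least 1 probe set of the array was annotated to it alone. Of the 37 genes, 36 were measured, by 54 of the 31042 probe sets on the array, among 14217 genes measured in all. Pycr1, an enzyme of proline synthesis, had no such probe set. The cells were articular chondrocytes of male Wistar rats aged 2 months, taken from cartilage of the femoral head, and were pooled and used at the second passage. Each Affymetrix Rat Genome 230 2.0 array was hybridized with RNA of 1 flask. According to the paper, only the RNA samples with the highest absorbance ratio in each group were labeled. It then left out 1 untreated and 2 glucosamine-alone samples that failed quality control. All cultures were kept in the same serum-containing medium, and the 4 groups differed in what was added to it. Nothing was added to the untreated group (3 arrays). The glucosamine group (2 arrays) had 20 mM of the sugar for 20 hours, and the IL-1β group (4 arrays) had 10 ng/ml of the cytokine over the last 14 hours. The group with both agents (4 arrays) had glucosamine first and then, 6 hours later, IL-1β as well, at the same doses and times. The comparisons address how an excess of the amino sugar glucosamine alters chondrocyte transcription, and how it alters the response to IL-1β, a cytokine of joint inflammation. All flasks came from 1 pool of cells, so that the p-values cover flask-to-flask spread alone.

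ATF4 is the main effector of the integrated stress response. Kinases that sense unfolded protein in the endoplasmic reticulum (ER), lack of amino acids, viral RNA or heme deficiency phosphorylate the initiation factor eIF2α, which lowers protein synthesis in general while the ATF4 message is translated more. ATF4 then binds, usually paired with a C/EBP protein, to a composite element joining a C/EBP and an ATF half-site, and raises genes that import amino acids, make non-essential amino acids, supply folate-bound carbon and charge tRNAs. Chondrocytes secrete large amounts of collagen and proteoglycan, and ATF4 is known to act in cartilage and bone.

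The deposited expression values are linear. Values under 5.71, the 25th percentile over all arrays, were raised to this floor before log2 was taken, and fold changes are ratios of geometric means. Tests were made with limma in 1 fit to the 4 groups over the 29263 probe sets that exceeded the floor on at least 1 array, and a gene was called where its Benjamini-Hochberg adjusted p was under 0.05. For genes with more than 1 probe set, the brightest on average was used. Both arrays lettered d, one from each group with IL-1β, stood apart from the other 11, since their lowest values ran further below 0 (1st percentiles of -31.0 and -36.8, and of -6.47 to -4.81 on the others). Their rank correlation with each other was 0.927, against 0.860 to 0.886 with the arrays of their own groups. Of 8 chondrocyte markers, 6 were measured, and their summed signal was 9387 to 10630 on untreated arrays, 7227 to 7570 with glucosamine, 5100 to 6187 with IL-1β and 5639 to 6790 with both agents. Col2a1 and Col11a1 were the brightest, with untreated means of 3819 and 2511. IL-1β lowered 6 of the 6 (100%, against 15.3% of all genes) and glucosamine 2 (33.3%, against 9.37%). For 5 measured fibroblast and synovial lining markers of 6, the sum was 9708 to 11030 on untreated arrays and 9689 to 10100 with glucosamine. It was 9868 to 11580 with IL-1β and 10070 to 11750 with both agents. The summed signal of 5 measured leukocyte markers of 6 was 24.3 to 34.4 on untreated arrays, 54.4 to 69.8 with glucosamine, 221 to 297 with IL-1β and 99.2 to 177 with both agents. Of these markers, Ptprc (CD45), which defines leukocytes, had signals of at most 10.8 on every array, and Itgam of at most 7.33. Cd68 made up 131.9 to 219 of the sum on each IL-1β array. With both agents Cd68 read 63.45, 63.46 and 64.05 on replicates a to c and -9.49 on replicate d. Lyz2 and Cd3e were high on the replicate d arrays, at 82.8 and 69.0 with IL-1β and 105.5 and 63.8 with both agents. On all other arrays they were at most 21.7 and 15.4. The summed signal of 6 adipocyte and muscle markers, led by Fabp4, was 49.4 to 72.0 on untreated and 639.5 to 1247 on IL-1β arrays. In such cultures, fewer cells of a type and less RNA per cell cannot be told apart, and the part of these shifts in the results below was not tested.

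Glucosamine raised 13 of the 36 members over untreated cultures and lowered 2, while 10.4% of all genes tested were higher and 9.37% lower. The median log2 fold change of the members was 0.26, against 0 for all 13748 genes tested. Calls were spread over the roles: 4 of 6 regulators, 2 of 4 effectors, 2 of 3 transporter genes and 4 of 14 synthetases were higher, but only 1 of 9 genes of amino acid and one-carbon synthesis, of which 2 were lower. IL-1β alone split the members, with 8 higher and 9 lower (22.2% and 25.0%, against 15.5% and 15.3% of all genes), at a median of -0.14 against 0.09 for all genes. With both agents, 17 members were higher than in untreated cultures and 3 lower (16.6% and 14.7% of all genes). Against IL-1β alone, both agents raised 18 members and lowered 3 (15.8% and 14.8% of all genes). Without both replicate d arrays, the numbers called in either direction were 19, 19, 23 and 22 in these 4 comparisons, against 15, 17, 20 and 21 with them (19.7%, 30.8%, 31.4% and 30.6% of all genes). These shares of all genes are from the fit to all arrays, and those without the replicate d arrays were not computed. These comparisons share arrays, so that their values are given side by side. By the probe set used, the 8 members called in no comparison were Cars1, Cbs, Eprs1, Hars1, Lars1, Phgdh, Slc7a5 and Tars1. Other probe sets of these genes were called in part. For both agents against IL-1β alone, 3 other probe sets of Cars1 were higher, by 0.43, 0.48 and 0.51 on the log2 scale, and 1 of them was also higher than in untreated cultures, by 0.44. With IL-1β alone, another probe set was lower for Eprs1 (-0.53) and for Lars1 (-0.44).

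**Figure D1:**
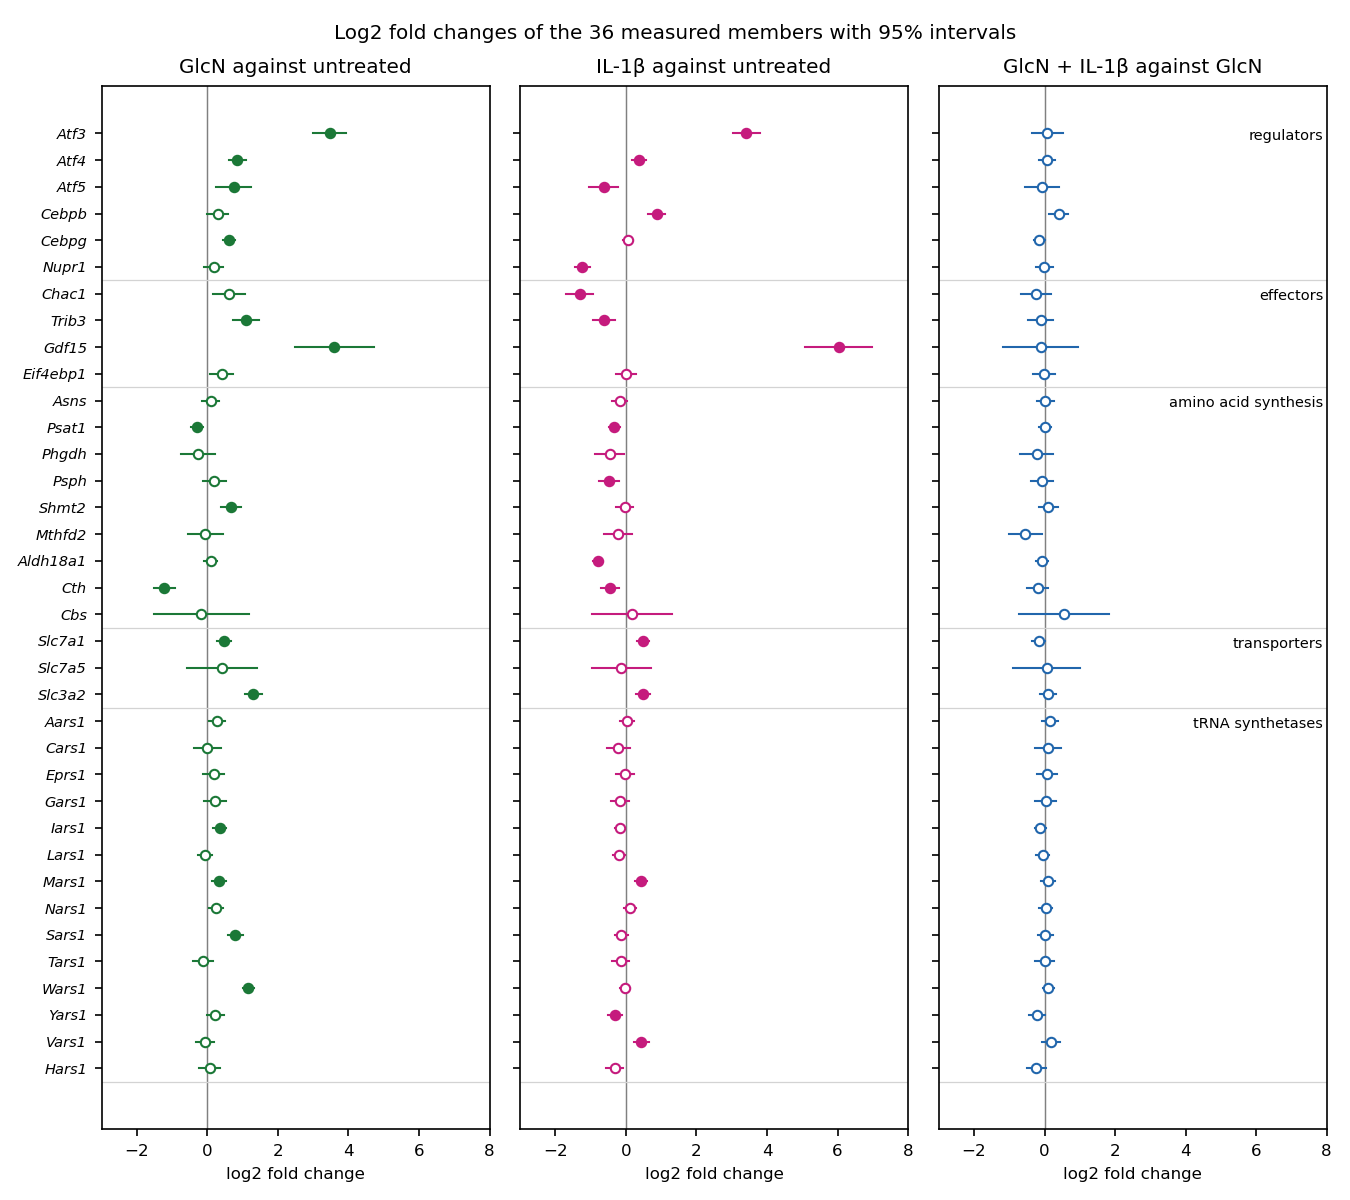
Log2 fold changes of the 36 measured members (x axis) with 95% intervals, by role from top to bottom, for glucosamine against untreated, IL-1β against untreated and both agents against glucosamine. Filled points are called by limma at an adjusted p under 0.05. Atf3 and Gdf15 lie furthest to the right in both panels against untreated cultures, and no point is filled in the panel on the right.

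Among the regulators, each agent raised Atf3, an ATF/CREB family factor that ATF4 itself induces, and Atf4. Signals of Atf3 were 26.2, 28.9 and 28.3 on untreated arrays, 338 and 280 with glucosamine, 256, 327, 228 and 400 with IL-1β, and 301, 347, 279 and 383 with both agents. Every treated array was above every untreated array, and the 3 treated groups overlapped. The rise was 11.1-fold with glucosamine (log2 fold change 3.47, SE 0.21, limma adjusted p = 1.1e-06) and 10.6-fold with IL-1β (3.41, SE 0.18, adjusted p = 5.9e-08). Both agents together gave 11.7-fold (adjusted p = 6.5e-08). Atf4 read 1748, 1770 and 1824 in untreated cultures, 3193 and 3234 with glucosamine, 2116, 2223, 2395 and 2481 with IL-1β, and 3592, 3804, 3080 and 3094 with both agents. The untreated, IL-1β and glucosamine-containing cultures formed separate ranges in that order, and both groups with glucosamine overlapped. The rise of Atf4 was 1.80-fold with glucosamine (limma adjusted p = 0.00018) and 1.29-fold with IL-1β (adjusted p = 0.0086). The array measures the message and not the ATF4 protein, whose level is set largely by translation.

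Atf5, a relative of ATF4 that is controlled in a similar way, moved in opposite directions with the agents. Its signals were 850, 792 and 848 on untreated arrays, 1173 and 1650 with glucosamine, 496, 460, 690 and 531 with IL-1β, and 1734, 1302, 1393 and 983 with both agents. All glucosamine-containing arrays were above, and all IL-1β arrays below, the untreated ones. The change was 1.68-fold up with glucosamine (log2 fold change 0.75, limma adjusted p = 0.047) and -0.63 on the log2 scale with IL-1β (adjusted p = 0.031), and both agents were 2.47-fold above IL-1β alone (adjusted p = 0.00019). Nupr1, a small nuclear protein induced by stress, had untreated signals of 2336, 2491 and 2612, glucosamine signals of 2922 and 2675, IL-1β signals of 1044, 1093, 921.5 and 1172, and signals of 2659, 3134, 2463 and 2957 with both agents. The IL-1β arrays were below all others, and the glucosamine arrays just above the untreated ones. IL-1β alone lowered it by a log2 fold change of -1.23 (SE 0.10, limma adjusted p = 2.7e-06), and both agents were 2.65-fold above IL-1β alone (adjusted p = 7e-07), whereas glucosamine against untreated gave 0.17 (adjusted p = 0.5). The C/EBP partners differed from each other. Cebpg, the usual dimer partner of ATF4 in amino acid responses, rose 1.54-fold with glucosamine (adjusted p = 0.00019) and had a log2 fold change of 0.04 with IL-1β (adjusted p = 0.67). Cebpb, a C/EBP factor that inflammatory cytokines induce, rose 1.83-fold with IL-1β (adjusted p = 0.0001) and had a log2 fold change of 0.29 with glucosamine (adjusted p = 0.21).

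The effectors included the largest changes among the members. Gdf15, a secreted stress hormone of the TGF-β family, read 5.62, 7.51 and 4.31 on untreated arrays, 55.8 and 104 with glucosamine, 266, 543, 453 and 429 with IL-1β, and 149, 51.7, 89.1 and 36.1 with both agents. All IL-1β arrays were above all others, and the glucosamine-containing arrays lay between these and the untreated ones. Because 2 untreated arrays were at or under the floor and were set to it, the size of the rise depended on the floor. The log2 fold change was 3.60 with glucosamine (limma adjusted p = 0.00055) and 6.03 with IL-1β (adjusted p = 8.8e-07). It was 2.43 and 4.85 with the floor at the 40th percentile. With a floor of 32 it was 3.68 with IL-1β (adjusted p = 5.2e-05), and 1.25 with glucosamine, which no longer passed the threshold (adjusted p = 0.12). Both agents gave a level below that of IL-1β alone, by -2.54 on the log2 scale (SE 0.40, adjusted p = 0.00061), a comparison in which no array was at the floor.

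Trib3, a pseudokinase that ATF4 and CHOP induce and that restrains ATF4 in turn, read 618, 640 and 624 on untreated arrays, 1441 and 1251 with glucosamine, 478, 491, 396 and 301 with IL-1β, and 1308, 1308, 1184 and 1191 with both agents. IL-1β arrays were below and glucosamine-containing arrays above all untreated arrays. Trib3 rose 2.14-fold with glucosamine (limma adjusted p = 0.0009), fell by 0.62 on the log2 scale with IL-1β (adjusted p = 0.0068), and was 3.05-fold higher with both agents than with IL-1β alone (adjusted p = 3.6e-06). Its 2 other probe sets were called in the same directions. Their log2 fold changes were 1.64 and 1.49 with glucosamine, -0.61 and -0.90 with IL-1β, and 2.09 and 2.14 for both agents against IL-1β alone. Chac1, an enzyme that degrades glutathione and a sensitive ATF4 target, read 209, 182 and 192 in untreated cultures, 276 and 321 with glucosamine, 56.4, 85.6, 72.9 and 105 with IL-1β, and 267, 232, 280 and 238 with both agents. The order of the groups was as for Trib3, again without overlap between IL-1β arrays, untreated arrays and glucosamine-containing arrays. IL-1β changed Chac1 by -1.32 on the log2 scale (SE 0.17, limma adjusted p = 0.00012), and both agents were 3.25-fold above IL-1β alone (adjusted p = 1e-05), while the glucosamine change of 0.62 did not pass the threshold (adjusted p = 0.068). Eif4ebp1, which binds the cap-binding factor eIF4E and holds back translation, was 1.31-fold higher with both agents than in untreated cultures (adjusted p = 0.037) and gave a log2 fold change of 0.41 with glucosamine alone (adjusted p = 0.097).

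**Figure D2:**
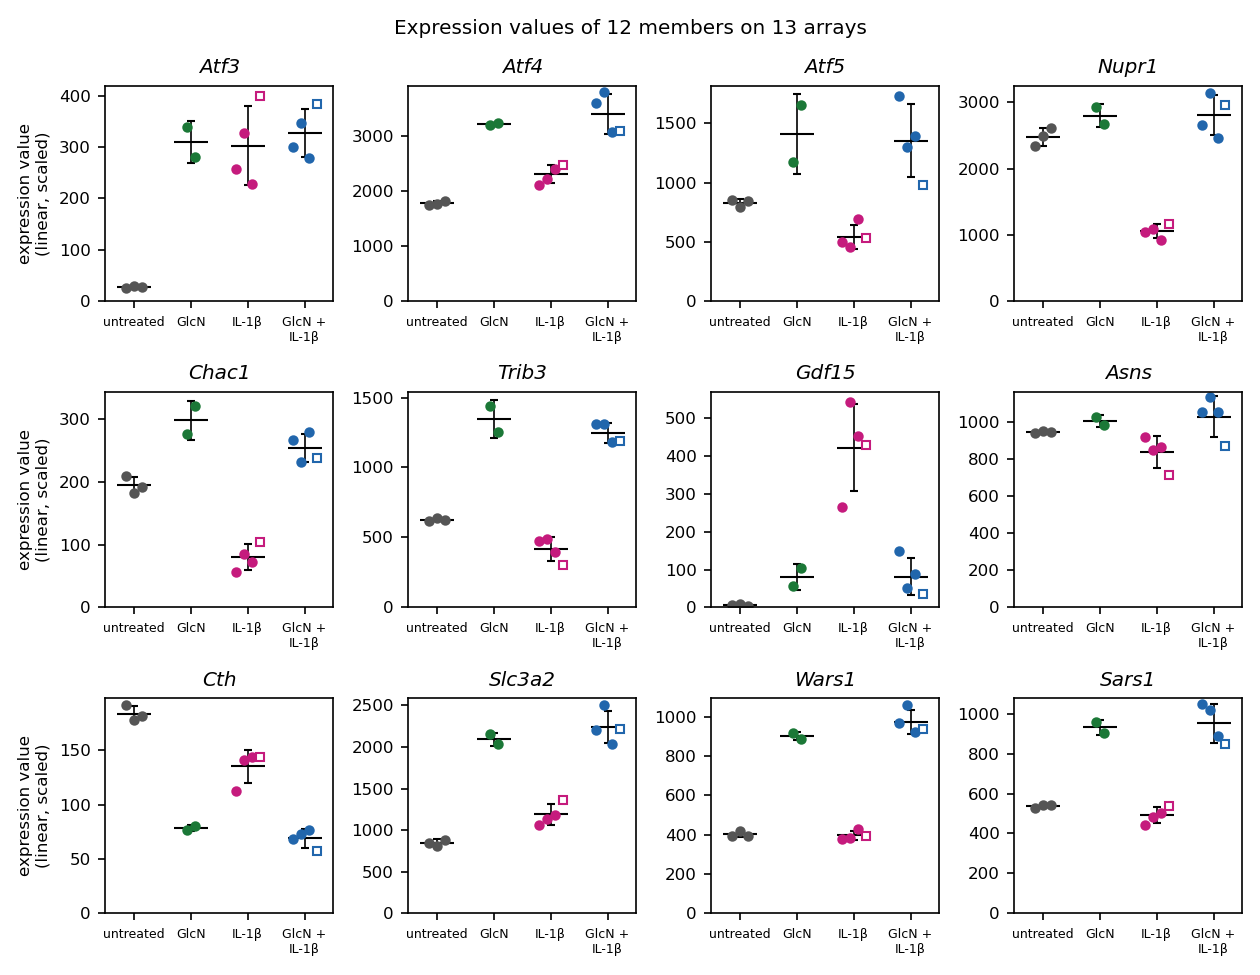
Expression values (linear scaled signal, y axis from 0) of 12 members on the 13 arrays, by group on the x axis (GlcN, glucosamine). Each point is 1 array, open squares are the replicate d arrays, and lines and bars are means and SD. Atf5, Nupr1, Chac1 and Trib3 are lowest with IL-1β alone, and Slc3a2, Wars1 and Sars1 are high in both groups with glucosamine.

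Of the 9 genes of amino acid and one-carbon synthesis, glucosamine raised Shmt2 (11.1%, against 10.4% of all genes). It lowered Psat1 and Cth (22.2%, against 9.37%). For both agents against IL-1β alone, 4 were higher (44.4%, against 15.8% of all genes) and 1 lower (11.1%, against 14.8%). Asns, asparagine synthetase and the gene most used to read the amino acid response, had signals of 942, 953 and 948 on untreated arrays, 1030 and 986 with glucosamine, 921, 849.9, 866 and 719 with IL-1β, and 1054, 1140, 1058 and 875 with both agents. Its glucosamine arrays were above and its IL-1β arrays below the untreated ones, but by little. Neither change passed the threshold, with log2 fold changes of 0.09 (SE 0.12, limma adjusted p = 0.9) and -0.18 (SE 0.10, adjusted p = 0.23), and both agents were 1.23-fold above IL-1β alone (adjusted p = 0.03). In the serine pathway, Phgdh, its first enzyme, was not called, with -0.26 for glucosamine and -0.46 for IL-1β on the log2 scale. Psat1, the aminotransferase of the pathway, fell by 0.29 with glucosamine (adjusted p = 0.033) and by 0.33 with IL-1β (adjusted p = 0.0035). Psph, its phosphatase, fell by 0.48 with IL-1β (adjusted p = 0.016) and was 1.52-fold higher with both agents than with IL-1β alone (adjusted p = 0.0024).

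The mitochondrial one-carbon enzymes parted. Shmt2, which converts serine to glycine in mitochondria, read 389, 395 and 374 on untreated arrays, 605 and 622 with glucosamine, 369, 341, 434 and 366 with IL-1β, and 714, 732, 678 and 532 with both agents. The glucosamine-containing arrays were all above the others, and the untreated and IL-1β ranges overlapped. The rise was 1.59-fold with glucosamine (log2 fold change 0.67, SE 0.13, limma adjusted p = 0.0042). Mthfd2, the next enzyme of that route, gave -0.05 with glucosamine (adjusted p = 1) and was lower with both agents than in untreated cultures, at -0.59 (adjusted p = 0.037). Aldh18a1, the first enzyme of proline synthesis, read 576, 613 and 619 on untreated arrays, 625 and 662 with glucosamine, 329, 341, 336 and 388 with IL-1β, and 585, 627, 575 and 650.1 with both agents. As for Nupr1, the IL-1β arrays were below all others. IL-1β lowered Aldh18a1 by a log2 fold change of -0.79 (SE 0.07, limma adjusted p = 4.2e-06), and both agents were 1.75-fold above IL-1β alone (adjusted p = 2.6e-06).

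Cth, which releases cysteine from cystathionine, was the member that fell most with glucosamine. It read 191, 178 and 181 on untreated arrays, 76.8 and 80.4 with glucosamine, 112, 141, 144 and 144 with IL-1β, and 68.7, 73.3, 76.9 and 57.1 with both agents. The untreated, IL-1β and glucosamine-containing ranges did not overlap, in that order from high to low. The log2 fold change was -1.22 with glucosamine (SE 0.14, limma adjusted p = 9.9e-05), -0.45 with IL-1β (adjusted p = 0.014), and -0.97 for both agents against IL-1β alone (adjusted p = 4.2e-05). Cbs, the enzyme before it, was at or near the floor in every group, with signals of at most 13.6 outside glucosamine plus IL-1β replicate d, and no change could be measured.

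Both transporter genes that were called with glucosamine were also called with IL-1β. Slc3a2, the heavy chain shared by several amino acid exchangers, read 851, 808 and 887 on untreated arrays, 2150 and 2038 with glucosamine, 1065, 1139, 1183 and 1368 with IL-1β, and 2202, 2504, 2037 and 2218 with both agents. IL-1β arrays lay above the untreated and below the glucosamine-containing arrays without overlap. The rise was 2.47-fold with glucosamine (limma adjusted p = 9.9e-06) and 1.40-fold with IL-1β (adjusted p = 0.002). Slc7a1, a carrier of arginine and lysine, read 275, 248 and 247 on untreated arrays, 341 and 373 with glucosamine, 334, 336, 377 and 399 with IL-1β, and 325, 316, 336 and 296 with both agents. Every treated array was above every untreated array, and the mean with both agents, 318 ± 17.0 (SD, n = 4), was the lowest of the treated groups. The rise of Slc7a1 was 1.39-fold with glucosamine (limma adjusted p = 0.0042), 1.41-fold with IL-1β (adjusted p = 0.00055) and 1.24-fold with both (adjusted p = 0.012). Other probe sets of Slc7a1 were not called in several of these comparisons, and 1 of them gave a log2 fold change of 0.17 with glucosamine. Slc7a5, the light chain that pairs with Slc3a2 to import large neutral amino acids, varied widely within groups, with 115 and 231.5 on its glucosamine arrays and 60.04 to 183 on its IL-1β arrays, and was not called.

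Of the 14 cytosolic tRNA synthetases, which join amino acids to their tRNAs, glucosamine raised 4 (28.6%, against 10.4% of all genes) and lowered none. Their median log2 fold change was 0.22. Wars1, for tryptophan, read 391, 420.4 and 394 on untreated arrays, 916 and 885 with glucosamine, 377, 385, 429 and 392 with IL-1β, and 968, 1060, 923 and 936 with both agents. Untreated and IL-1β arrays overlapped, and all glucosamine-containing arrays were above them. Wars1 rose 2.24-fold with glucosamine (limma adjusted p = 1.7e-06) and had a log2 fold change of -0.02 with IL-1β (adjusted p = 0.83). With the median over the probe sets of the gene in place of 1 probe set, the glucosamine change of Wars1 was 1.22 on the log2 scale and did not pass the threshold (adjusted p = 0.21). The other probe set of Wars1 read 173, 181 and 176 on untreated and 442 and 415 on glucosamine arrays, but 117, 152, 179 and -0.97 on the IL-1β arrays, the last being replicate d. Sars1, for serine, showed the same pattern, with 529, 543 and 541 on untreated arrays, 959 and 905.5 with glucosamine, 441, 482, 500.1 and 537 with IL-1β, and 1048, 1016, 889.6 and 850.1 with both agents. Its rise was 1.73-fold with glucosamine (limma adjusted p = 0.00021), and both agents were 1.94-fold above IL-1β alone (adjusted p = 3.5e-06).

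By the probe sets used, the remaining synthetases changed little. Iars1 (isoleucine) and Mars1 (methionine) rose 1.27-fold and 1.26-fold with glucosamine (limma adjusted p = 0.012 and 0.031). Another probe set of each gene was not called, with log2 fold changes of -0.19 for Iars1 and 0.30 for Mars1. The other 10 had log2 fold changes with glucosamine between -0.13 (Tars1, threonine) and 0.28 (Aars1, alanine) by the probe sets used. Beyond this range, other probe sets gave 0.47 for Gars1, 0.33 for Hars1 and -0.29 for Lars1, none of them called. Those of Cars1 and Eprs1 are given below. With IL-1β, Vars1 (valine) rose by 0.43 and Mars1 by 0.42, and Yars1 (tyrosine) fell by 0.31 on the log2 scale. The other probe set of Mars1 gave -0.05 with IL-1β (adjusted p = 0.89) and that of Vars1 0.46 (adjusted p = 0.19), and neither was called. The other probe set of Gars1 was lower with IL-1β, by a log2 fold change of -0.55 (adjusted p = 0.0081), beside those of Eprs1 and Lars1 given above. Against IL-1β alone, both agents raised 6 of the 14 (42.9%, against 15.8% of all genes), namely Wars1, Sars1, Gars1 (glycine), Iars1, Aars1 and Yars1. Both agents lowered Vars1 (7.14%, against 14.8%). Log2 fold changes of other probe sets in this comparison were 2.29 for Wars1, -0.02 for Iars1 and -0.08 for Vars1, none of them called. That of Gars1 was 0.86 and was called. With glucosamine, 11 of the 14 synthetases had a positive log2 fold change, against 6292 of all 13748 genes, and Wars1 and Sars1 alone exceeded 1.5-fold. Among the 11, Cars1 was at 0.0004 by the probe set used and at 0.17 to 0.38 by others, none of them called. Eprs1 was at 0.18, and other probe sets of it above the floor gave -0.32 and -0.22, also not called.

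In cultures that already had glucosamine, no change of a member with IL-1β passed the test: 0 of 36 were called between both agents and glucosamine alone with limma, against 2.57% of all genes in either direction (1.45% higher and 1.13% lower), and 2 members had an unadjusted p under 0.05. The 95% interval lay within 1 log2 unit of 0 on both sides for 32 members, and reached further for Gdf15, Mthfd2, Cbs and Slc7a5. The glucosamine group had 2 arrays, and a p that misses the threshold does not show that the groups were alike. The effect of IL-1β with glucosamine was then compared with that without it, as an interaction in the same fit. The difference passed the threshold for 6 members, 3 in each direction (8.33% each), near the 5.11% of all genes higher and 6.68% lower. It was positive for Nupr1 (1.23, limma adjusted p = 0.00031), Chac1 (1.08, adjusted p = 0.022) and Aldh18a1 (0.71, adjusted p = 0.00097), which IL-1β lowered in cultures without glucosamine. It was negative for Atf3 (-3.34, adjusted p = 1.3e-05), Gdf15 (-6.14, adjusted p = 9.7e-05) and Slc7a1 (-0.66, adjusted p = 0.0039). Without glucosamine replicate a the adjusted p of Chac1 was 0.13, without glucosamine replicate b 0.056, and without untreated replicate a or c 0.061 or 0.052. At a floor of 32 the value for Gdf15 was -3.79 (adjusted p = 0.0023). Other probe sets of Slc7a1 gave -0.49 (adjusted p = 0.17) and -0.81 (adjusted p = 0.15) and were not called. The latter was at or under the floor on all 3 untreated arrays, on 3 of 4 with IL-1β and on 3 of 4 with both agents. For Atf5 and Trib3, which glucosamine raised and IL-1β lowered, the interaction was 0.56 (adjusted p = 0.38) and 0.51 (adjusted p = 0.23). Other probe sets of Trib3 gave 0.45 (adjusted p = 0.39) and 0.65 (adjusted p = 0.052) and were not called.

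**Figure D3:**
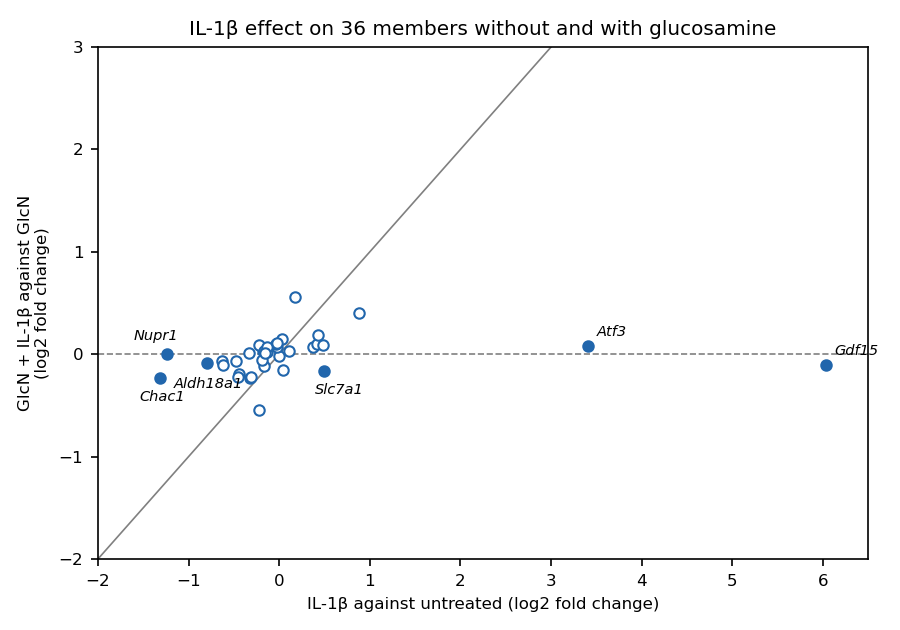
Log2 fold change with IL-1β in cultures without glucosamine (x axis) and with it (y axis) for the 36 measured members. Filled points have an interaction called by limma, the solid line marks equal effects and the dashed line no effect with glucosamine. Points spread from -1.32 to 6.03 along x but from -0.54 to 0.55 along y, and both axes use group means that share no arrays with each other.

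Set beside genes of ER protein folding, which the factors ATF6 and XBP1 control, the members responded less uniformly. Of 24 measured ER chaperones and folding genes, glucosamine raised 20 (83.3%) and lowered none, at a median log2 fold change of 0.88. Of the 36 members it raised 13 (36.1%), at a median of 0.26, against 10.4% of all genes. The largest rises of the ER genes were those of Hyou1 (2.33), Creld2 (2.19), Sdf2l1 (2.02) and Pdia4 (1.96), chaperones and folding factors of the ER lumen. Hspa5, the chaperone BiP, read 2137, 2362 and 2440 on untreated arrays, 4015 and 3971 with glucosamine, 3300, 2990, 3017 and 3703 with IL-1β, and 4237, 4848, 3716 and 4622 with both agents, a 1.73-fold rise with glucosamine (limma adjusted p = 0.0012). All its treated arrays were above the untreated ones. With IL-1β alone, 6 ER genes were higher (25.0%) and 2 lower (8.33%), at a median of 0.15. Of all genes, 15.5% were higher and 15.3% lower, at a median of 0.09. The difference between the lists was not tested.

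Genes that connect both branches followed glucosamine in part. Of 15 genes for eIF2α kinases, phosphatase subunits and partners, glucosamine raised 6 and lowered none. Ddit3, which encodes CHOP and is a target of ATF4, read 345, 313 and 317 on untreated arrays, 1729 and 1576 with glucosamine, 157, 347, 237 and 336 with IL-1β, and 1325, 1404, 1280 and 1181 with both agents. The glucosamine-containing arrays were all above the others, and the untreated and IL-1β arrays overlapped. Ddit3 rose 5.08-fold with glucosamine (limma adjusted p = 9.2e-05) and had a log2 fold change of -0.34 with IL-1β (adjusted p = 0.34). Ppp1r15a (GADD34), which returns eIF2α to its unphosphorylated state, rose by 1.88 with glucosamine and by 1.72 with IL-1β on the log2 scale. Eif2ak3 (PERK), the ER-bound eIF2α kinase, rose by 1.16 with glucosamine, and Eif2b3, a subunit of the exchange factor for eIF2, by 1.11. Means of the other kinases, Eif2ak1, Eif2ak2 and Eif2ak4, were 437, 110 and 117 on untreated arrays and 464, 90.6 and 111 with glucosamine.

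Other reported ATF4 targets outside the members are given with their shares. Glucosamine raised 7 of 21 (33.3%, against 10.4% of all genes), with the largest changes in Slc6a9, a glycine transporter (1.33), Sqstm1, an autophagy receptor (1.28), Stc2, a secreted glycoprotein (1.08), and Lonp1, a mitochondrial protease (0.98), and lowered none. IL-1β raised 3 (14.3%, near the 15.5% of all genes), among them Slc7a11, the cystine carrier that pairs with Slc3a2 (2.03), and lowered 9 (42.9%, against 15.3%), with the largest changes in Aldh1l2, a mitochondrial folate enzyme (-1.91), Jdp2 (-1.74), Vldlr (-1.34) and Gpt2 (-1.20). Of 8 other cytosolic synthetases and scaffold proteins, Aimp2 alone rose with glucosamine (0.55), and of 13 mitochondrial synthetases Yars2 rose (0.83) and Nars2 fell (-1.38). These shares, 12.5% higher in the first list and 7.69% in each direction in the second, are near those of all genes. Of 6 cytosolic folate and alternative proline enzymes, glucosamine raised none and lowered 2 (33.3%, against 9.37% of all genes). These were Tyms (-1.31), which makes thymidylate, and Mthfd1 (-0.62). IL-1β raised 2 of the 6 (33.3%, against 15.5% of all genes), among them Mthfd2l by 2.50.

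**Figure D4:**
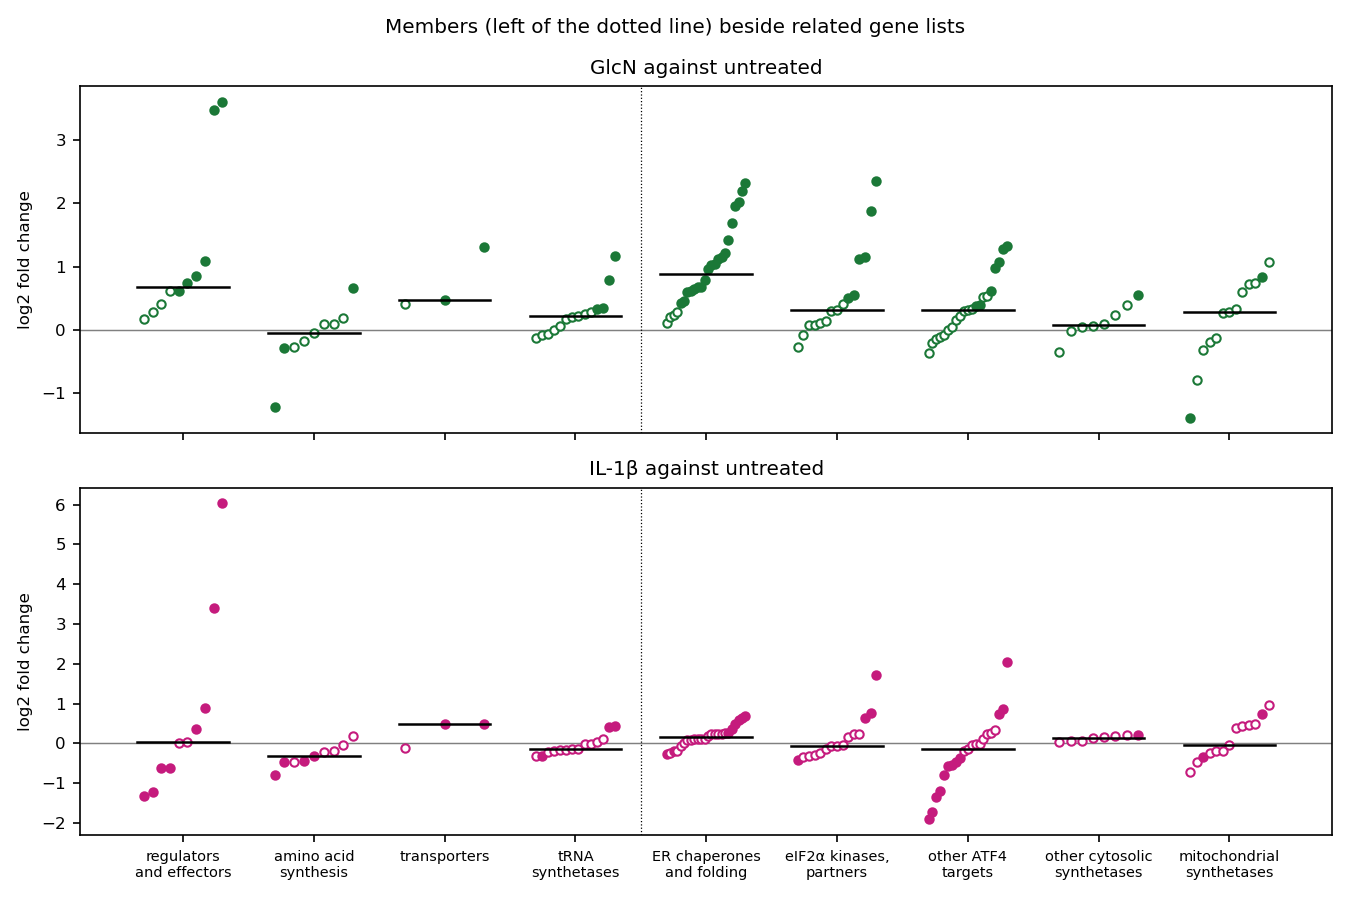
Log2 fold changes (y axis) of the members, by role, left of the dotted line, and of genes of related lists right of it, for glucosamine (top) and IL-1β (bottom) against untreated. Each point is 1 gene, filled points are called by limma, and bars are medians. With glucosamine the bar of the ER genes is at 0.88, and those of the synthesis genes and synthetases are at -0.05 and 0.22.

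The composite element that ATF4 binds was looked up in the promoters of the members. RefSeq promoters of assembly GRCr8, from 250 bases before to 50 bases after the annotated start, were at hand for 33 of the 37 genes, with 35 promoters, and not for Aldh18a1, Atf3, Eif4ebp1 and Gars1. The letters TGATGNAA were searched on both strands. They occurred in 34.3% of the member promoters, in 12 genes, against 3.98% of 33469 promoters of all genes. The stricter form TGATGCAA, which is contained in the first, occurred in 28.6% of the member promoters against 0.795% of all. It was found for 7 of 13 synthetases (53.8%), and otherwise for Nupr1, Chac1 and Pycr1. The following stretches of 60 bases, 5′ to 3′ on the strand of the gene, show it in an effector, a regulator and 3 synthetases, with the match in capitals (on the opposite strand in all 5), and are followed by the looser matches in Trib3 and Slc7a1.
Chac1, chr3:126795938-126795997, plus strand: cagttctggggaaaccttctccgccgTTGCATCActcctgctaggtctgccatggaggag
Nupr1, chr1:190645923-190645982, minus strand: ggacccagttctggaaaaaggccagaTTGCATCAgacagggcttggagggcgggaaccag
Iars1, chr17:15193653-15193712, minus strand: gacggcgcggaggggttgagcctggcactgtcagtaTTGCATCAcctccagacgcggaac
Mars1, chr7:65023754-65023813, minus strand: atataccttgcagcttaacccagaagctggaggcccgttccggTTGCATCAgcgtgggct
Tars1, chr2:62114803-62114862, minus strand: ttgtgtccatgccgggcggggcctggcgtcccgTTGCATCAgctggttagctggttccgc
Trib3, chr3:161275534-161275593, minus strand: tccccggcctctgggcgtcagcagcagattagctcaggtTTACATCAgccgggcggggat
Slc7a1, chr12:11664428-11664487, plus strand: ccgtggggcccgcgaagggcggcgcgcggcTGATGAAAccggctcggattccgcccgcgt

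**Figure D5:**
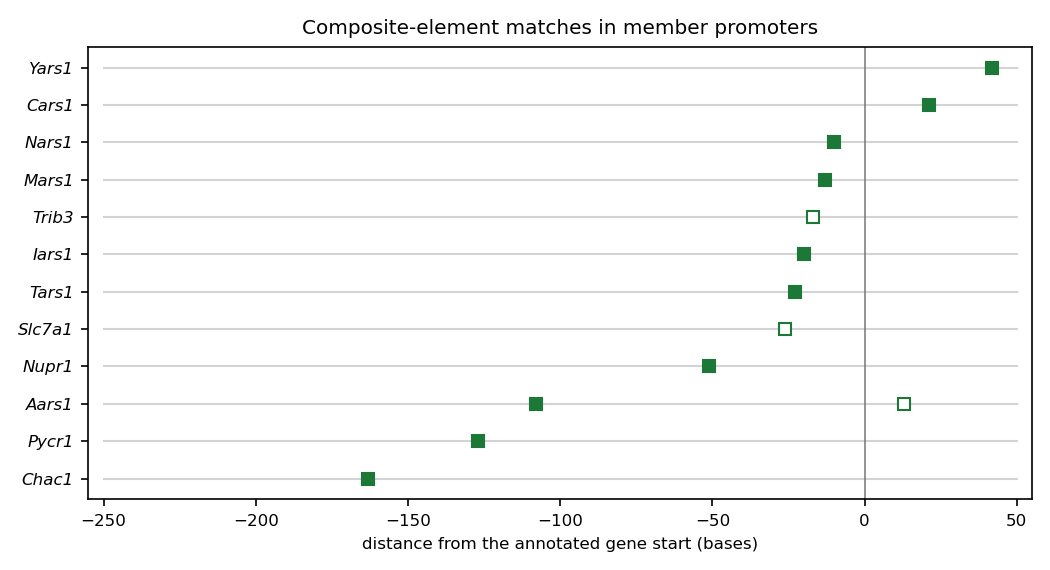
Distance of matches to TGATGNAA (squares) from the annotated gene start (x axis, bases, negative before the start) in the promoters of 12 members. Filled squares also match TGATGCAA. Of the filled squares, those of Iars1, Mars1, Nars1 and Tars1 are within the last 30 bases before the start, and those of Chac1, Pycr1 and Aars1 more than 100 bases before it.

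The response to glucosamine was also read by the presence of a match. Of 9 measured members with the stricter match, glucosamine raised 2, Iars1 and Mars1, and lowered none, at a median log2 fold change of 0.25. Of 23 members with a promoter but no such match it raised 10 and lowered 2, at a median of 0.29. Of all genes tested, 10.4% were higher with glucosamine and 9.37% lower, and the difference between the sets was not tested. Wars1, Sars1, Slc3a2 and Gdf15, which rose, had no match in this window, which says only that these letters were not found in it. The lookup is a description of sequence with no test and does not show binding. The ER stress element, spelled CCAAT, 9 bases of any kind and CCACG, and also searched on both strands, gave the reverse picture. It occurred in promoters of 8 of 19 ER genes, against 0.0657% of all promoters, and in no member promoter, whereas TGATGCAA occurred in 1 of the 19 ER genes. Examples are Hspa5 and Creld2, with the fixed letters in capitals and on the opposite strand in Creld2.
Hspa5, chr3:38452953-38453012, plus strand: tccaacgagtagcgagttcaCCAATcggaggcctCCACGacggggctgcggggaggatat
Creld2, chr7:121789219-121789278, plus strand: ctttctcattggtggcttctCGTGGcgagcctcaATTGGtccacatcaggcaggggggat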

How the data were processed

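Expression was measured in 13 cultures with 1 array each, and groups were taken from the sample titles. The values are linear intensities deposited by the authors. The methods name Probe Profiler with a global scaling, whereas the submitters' processing notes name MAS5 (version 5). Array means were 127 to 144 and 75th percentiles 112 to 119, and no scaling was added. Of the probe sets, 57 controls were left out. Annotation gave 1 symbol for 20826 probe sets, several for 436 and none for 9780, and 20758 of the probe sets had a current symbol by gene identifier.

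Deposited values were floored at their 25th percentile and taken to log2. Probe sets never above the floor were not tested. One linear model of the 4 groups was made in R 4.3.3 with the package limma 3.58.1 (variance trend in eBayes, 2-sided tests, residual degrees of freedom 9), and p-values were Benjamini-Hochberg adjusted over all probe sets tested. The scripts were tested on simulated data. The number of arrays limits the precision. Members and lists were chosen with earlier results of these data known. Array values are given for members called with a log2 fold change of at least 1 in size in any comparison, for Ddit3 and Hspa5, and for Atf4, Asns, Sars1, Shmt2, Aldh18a1 and Slc7a1, which were chosen after their values were seen. Of other lists, up to 4 called genes with the largest change are named. In 12 members with 18 other probe sets, 24 of 108 calls differed from those of the probe set used, none in the opposite direction.

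Replicate letters were checked for pairing. Deviations from group means of same-letter arrays correlated at 0.38, 0.45, 0.53 and 0.80 between IL-1β alone and both agents, but at 0.04, -0.00 and 0.05 without the replicate d arrays, and between -0.17 and 0.18 for other groups. The letter was used as a block in an alternative. Also tried were a floor at the 10th percentile, the 40th percentile or 32, quantile normalization, a common 75th percentile, other filters on dim probe sets, no variance trend, array weights, fits to the groups compared alone, the median over the probe sets of a gene, each array left out in turn, both d arrays left out, and the methods' analysis of variance with Tukey's test. A term for the replicate d arrays and a block within the cultures with IL-1β were added after seeing the data. Promoters were taken from RefSeq (GRCr8), and no build is given for the array values in the sources used here.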

Additional observations from a re-analysis of the deposited data

Results flagged for a closer look

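Within groups of 4 arrays, 6 of the 72 sets of member values had an array far from the others by Dixon's test, and 4 of the 6 were replicate d arrays. Chance alone marks about 1 in 20 where no values are tied. The test used floored log2 values. Cbs was at or under the floor on 2 of 4 IL-1β arrays and on 3 of 4 with both agents. Flooring tied these values, so that this rate does not hold for Cbs. Signals on IL-1β replicate d were highest for Cbs (13.6) and lowest for Nars1 (1216) and Yars1 (284), and Cbs was also highest on glucosamine plus IL-1β replicate d (26.6). Replicate a of IL-1β was lowest for Cth (112) and highest for Gars1 (1364).

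The effect of IL-1β differed between cultures with and without glucosamine for 6 members, by the interaction tested with limma. Of the members 8.33% were called in each direction, against 5.11% of all genes higher and 6.68% lower. The effect with glucosamine minus that without it was 1.23 for Nupr1, 1.08 for Chac1 and 0.71 for Aldh18a1 on the log2 scale. It was -3.34 for Atf3, -6.14 for Gdf15 and -0.66 for Slc7a1.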

How the results depend on the processing

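No alternative reversed a named value: of 698 recomputed values of 25 named results, 682 stayed on their side of the threshold and 16 did not. These were Gdf15 at a floor of 32 (1.25 for glucosamine and 1.14 for both agents against untreated), Wars1 with the median over its probe sets (1.22 and 1.06), Chac1 in the interaction without single untreated or glucosamine arrays, and Atf3, Gdf15 and Atf5 under the methods' analysis of variance. That analysis, at a stricter threshold and on linear values, called 8 members for glucosamine, 6 for IL-1β, 8 for both agents against untreated and 10 against IL-1β, and none against glucosamine. Array weights called 2 members for both agents against glucosamine and 13 in the interaction, the cause of which was not tested. Leaving out single arrays gave 10 to 16 members for glucosamine, 14 to 19 for IL-1β, 13 to 22 for both agents against untreated, 17 to 23 against IL-1β, 0 against glucosamine and 5 to 7 in the interaction. The lowest value for both agents against untreated, 13, came without untreated replicate b. With the replicate letter as a block, 15, 16, 22, 24, 0 and 7 members were called in these 6 comparisons, and 21 for both agents against IL-1β with the block within these 2 groups, so that the block changed no count by more than 1.5 times and no call of a named value. With a term for the replicate d arrays, 18, 18, 22, 25, 0 and 7 were called. The shares of all genes called were not computed for these alternatives. The interaction could not be fitted with the compared groups alone or by the methods' test. The floor limits values for Cbs, for untreated Gdf15 and for a further probe set of Slc7a1.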
